A study of Mus musculus with 6 samples.

Results

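The genes described here are 40 genes of the Myc network and of nucleolar ribosome assembly, measured in intestinal stem cells of mice given an inhibitor of Notch processing. They were taken from a list of gene symbols, and each was represented by its brightest probe set, the one with the highest mean log2(intensity + 16) over all arrays. All 40 were measured, out of 18193 genes in the series, and 35 lay above the median gene in mean signal. The 5 below it were Mycn, Polr1b, Rrp12, Ftsj3 and Noc3l.

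The series holds 6 Affymetrix expression arrays, each hybridised with total RNA of small intestinal cells from 1 mouse. All mice were Lgr5-EGFP-IRES-creERT2 animals, in which the Lgr5 gene drives a green fluorescent protein and an inducible Cre, and cells with high GFP were sorted. The 3 control mice received the vehicle, DMSO. The other 3 mice received DBZ, a gamma-secretase inhibitor (GSI), for 24 h. The labels give its dose as 30 in a molar unit per kg body weight whose prefix appears to be missing. Age, sex and background strain are not given in the labels. Groups follow the sample titles. A separate description lists DMSO on every array, against the titles of the 3 DBZ samples.

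Ribosomes are built in the nucleolus. RNA polymerase I makes the precursor of ribosomal RNA, small nucleolar ribonucleoproteins guide its chemical modification, and a long series of assembly factors fold, cut and export the small and the large subunit. The Myc transcription factor, paired with Max at DNA sites called E-boxes, is known for raising the expression of these factors in growing cells, and proteins of the Mxd family pair with Max to oppose it. In the crypt, Wnt signalling maintains Myc and with it the growth of dividing cells, and Notch signalling keeps stem cells from taking secretory fates.

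Array medians lay between 44.9 and 46.3 intensity units, and with 3 mice a group precision is set by their number. Vehicle replicate 1 stood apart. Its ratio of 3' to 5' actin control signal, which tracks how intact the RNA was, stood at 2.22. It was 1.61 and 1.69 in the other vehicle arrays and 1.51 to 1.57 in the DBZ arrays, so that the actin ratio moved with the groups. The same ratio for Gapdh was 1.42 in vehicle replicate 1, and 1.11 and 1.07 in the other vehicle arrays. In the DBZ arrays it was 1.05 to 1.09, so apart from vehicle replicate 1 the groups overlapped for Gapdh. Epcam, which marks epithelium, was bright in both groups, and Lgr5 stood at 245 ± 35.9 and 230 ± 17.9 (SD, n = 3), as the sort on the Lgr5 reporter favours. Olfm4, a stem cell gene that depends on Notch, went from 4346 ± 781 to 28.1 ± 8.81 (SD, n = 3). Of 12 crypt stem cell markers, these among them, 2 rose and 2 fell (limma, adjusted p under 0.05), or 33.3%, against 5.34% of all genes. Their log2 differences, DBZ minus vehicle, ran from -6.63 to 0.79, and 7 were positive. Summed markers of fibroblasts and smooth muscle ran from 21273 to 30951 without DBZ and from 45793 to 53200 with it (8 of 13 rose). Adipocyte markers summed to 2066 to 4654 without DBZ and 10985 to 26215 with it (3 of 6 rose), and neutrophil markers to 158 to 205 and 699 to 5429 (2 of 6 rose). Mesothelium summed to 358 to 391 and 463 to 1258 in the same order (0 of 6 passed, limma, with 5 at an unadjusted p under 0.05), and endothelium to 952 to 1011 and 1211 to 1444 (1 of 8 rose). Goblet cell markers summed to 109307 to 117439 and 137515 to 170120 (4 of 9 rose). Enteroendocrine markers summed to 4173 to 5178 in vehicle arrays and to 6220, 17800 and 17478 in DBZ replicates 1, 2 and 3 (2 of 10 rose). The 14 S phase markers summed to 10919 to 11772 in vehicle arrays and to 7157, 8919 and 5754 in DBZ replicates 1, 2 and 3 (4 fell). No marker of these lists was listed at 0. The lowest value of any marker was 142 for fibroblasts and smooth muscle, 16.9 for neutrophils and 16.6 for adipocytes. The part of any of these in the results below was not tested. In a sorted population measured in bulk, fewer cells of a type and less RNA per cell cannot be told apart.

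With DBZ, few of the Myc network and nucleolar genes passed a test against vehicle that was adjusted over all genes. Of the 40 genes 1 rose, Tsr1, an assembly factor of the small subunit, and 0 fell (limma, Benjamini-Hochberg adjusted p under 0.05). That is 2.5% of the members, where 5.34% of all genes tested were called (3.82% higher and 1.52% lower). The split over all genes was 695 higher and 277 lower, but 581 and 384 with quantile normalization and 536 and 390 with arrays centred on their medians. At an unadjusted p under 0.05 (limma) there were 11 members higher and 3 lower, or 27.5% and 7.5%, beside 15.1% and 11.3% of all genes (26.3% in either direction). The median log2 difference, DBZ minus vehicle, was 0.13 over the members and -0.02 over all genes, and 26 of the 40 members had a positive difference, or 65%, against 45.4% of all genes. Most members are bright, and over the 9096 genes above the median gene the median difference was 0.02. The share of positive differences among those brighter genes was thus above 45.4%. Shares given below by role and list are set against all genes, not matched for brightness. The member median stayed positive under the other scalings, at 0.06 with quantile normalization and 0.09 with arrays centred on their medians. The 3 vehicle and 3 DBZ values did not overlap for 6 members with DBZ higher (15%, against 17.3% of all genes) and for 3 with DBZ lower (7.5%, against 15.8%). The 95% interval of the difference lay between -1 and 1 for 37 of the 40, the exceptions being Tsr1, Bysl and Nolc1.

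**Figure D1:**
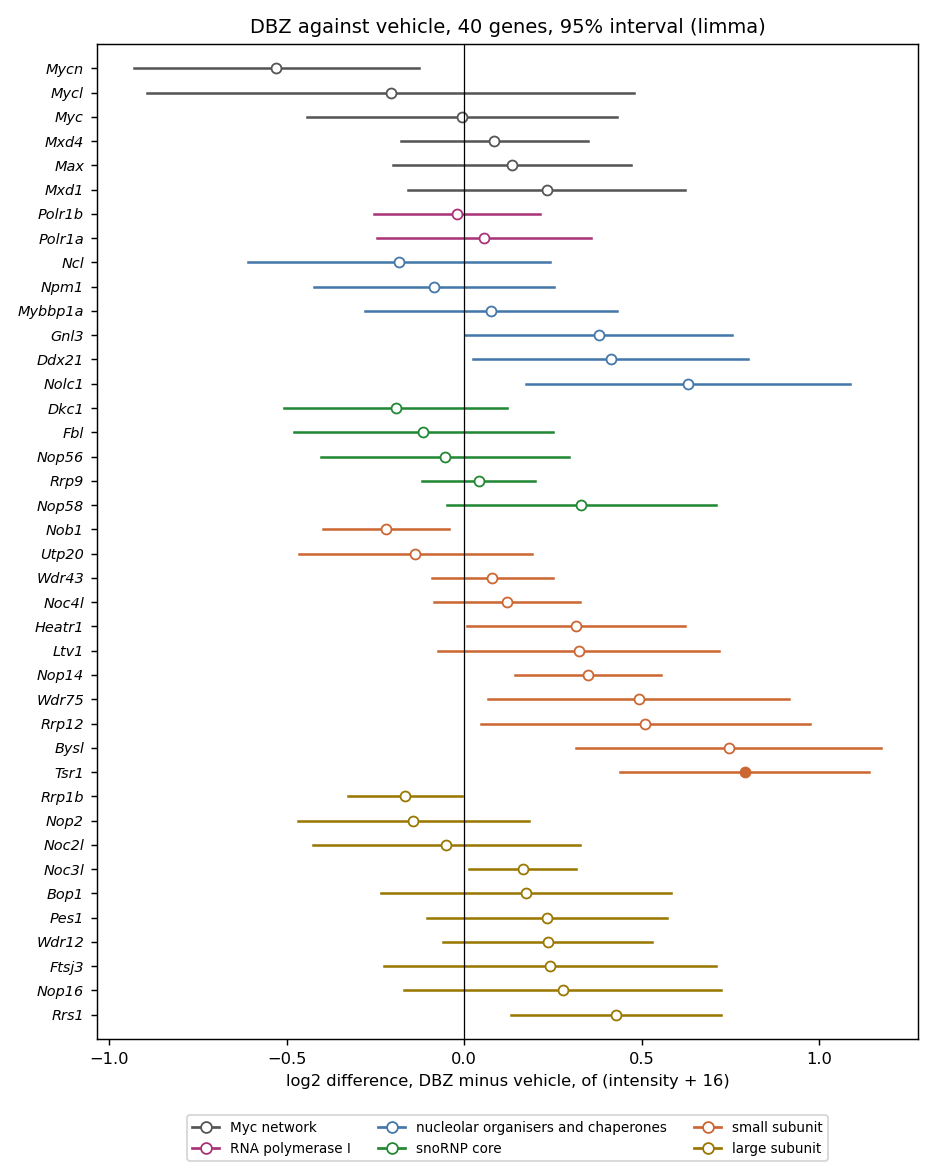
Log2 difference (DBZ minus vehicle, of intensity + 16) on the horizontal axis for the 40 genes, one row per gene and coloured by role, with the 95% interval from limma (3 arrays a group). The filled point, Tsr1 at 0.79, is the gene past an adjusted p of 0.05, and the other 39 points are open.

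No gene of the Myc network passed the test. Myc itself, a single probe set, read 309, 436 and 493 intensity units in vehicle replicates 1, 2 and 3 and 440, 354 and 421 in DBZ replicates 1, 2 and 3. The groups overlapped, and the lowest value was that of vehicle replicate 1. The log2 difference was -0.01 ± 0.18 (SE, n = 3; limma, Benjamini-Hochberg adjusted p = 0.99), with a 95% interval of -0.44 to 0.43, and its sign turned to 0.01 with arrays centred on epithelium genes.

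Mycn, the paralogue best known from embryonic tissues and neural tumours, read 91, 133 and 106 in vehicle and 85.1, 72.3 and 56.6 in DBZ replicates 1, 2 and 3. Every DBZ array was below every vehicle array, with DBZ replicate 1 close to vehicle replicate 1. The difference was -0.53 ± 0.17 (SE, n = 3; limma, Benjamini-Hochberg adjusted p = 0.11) and did not pass. Its size depended on the probe set. The others stood at -0.28, also without overlap of the groups, and at -0.01, for a dim probe set with a mean of 25 intensity units. The mean of all Mycn probe sets was at -0.27 (limma, adjusted p = 0.064). With array weights the difference passed at -0.53 (limma, adjusted p = 0.041). Mycl, the third paralogue, read 116, 151 and 144 in vehicle and 191, 94.7 and 83.4 in DBZ arrays. DBZ replicate 1 was the highest of all 6 arrays and the other DBZ arrays were the lowest, so no direction was shared (difference -0.21 ± 0.28, SE; limma, Benjamini-Hochberg adjusted p = 0.69).

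The common partner Max read 827, 1014 and 1009 in vehicle and 1232, 1009 and 905 in DBZ arrays, a difference of 0.13 ± 0.14 (SE, n = 3; limma, Benjamini-Hochberg adjusted p = 0.58). Mxd1, which opposes Myc in differentiating cells, read 2007, 1896 and 2759 in vehicle and 2785, 2275 and 2690 in DBZ arrays. The highest vehicle value reached the DBZ range, and the difference was 0.23 ± 0.16 (SE; limma, adjusted p = 0.41). Mxd4, another opponent, read 610, 508 and 469 in vehicle and 550, 531 and 597 in DBZ arrays, within the same range (0.08 ± 0.11, SE; limma, adjusted p = 0.67). Its dimmer probe sets stood at 0.26, 0.19 and 0.01. For those at 0.26 and 0.19 every DBZ array lay above every vehicle array. None passed on its own (limma over probe sets, lowest adjusted p = 0.16). The ratio of Mxd to Myc genes was not formed, since levels of different probe sets cannot be set against each other.

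RNA polymerase I was represented by its 2 largest subunits. Polr1a, the catalytic subunit, read 127, 141 and 132 in vehicle and 123, 171 and 127 in DBZ arrays, with DBZ replicate 2 as the highest. Polr1b read 77.4, 79.7 and 77.2 in vehicle and 76.5, 88.9 and 66.3 in DBZ arrays. The vehicle values were tight and lay inside the wider DBZ range for both. The differences were 0.06 ± 0.12 and -0.02 ± 0.10 (SE, n = 3; limma, Benjamini-Hochberg adjusted p = 0.81 and 0.92), and that of Polr1a turned to -0.01 with quantile normalization.

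Of 6 genes for proteins that organise the nucleolus, 4 had a positive difference (66.7%, against 45.4% of all genes) and 0 passed the test. At an unadjusted p under 0.05 (limma) there were 3, or 50%, against 26.3% of all genes. Ncl, nucleolin, which coats nascent ribosomal RNA, read 2721, 3726 and 3966 in vehicle and 2673, 3573 and 2869 in DBZ arrays. Npm1, nucleophosmin, a histone and ribosome chaperone of the granular nucleolus, read 3783, 5092 and 5141 in vehicle and 4419, 4729 and 3980 in DBZ arrays. Vehicle replicate 1 was the lowest vehicle array for both, and the groups overlapped. Their differences were -0.18 ± 0.18 and -0.08 ± 0.14 (SE, n = 3; limma, Benjamini-Hochberg adjusted p = 0.56 and 0.75). The other probe sets of Ncl were split in direction, at 0.14, 0.05, -0.23 and -0.11, and that of Npm1 was at 0.08.

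Nolc1, a scaffold of small nucleolar ribonucleoproteins, read 163, 211 and 225 in vehicle and 250, 397 and 313 in DBZ arrays. The groups did not overlap, and DBZ replicate 1 lay nearest the vehicle arrays. The difference of 0.63 ± 0.19 did not pass (SE, n = 3; limma, Benjamini-Hochberg adjusted p = 0.10), though it did without DBZ replicate 1 (0.79; limma, adjusted p = 0.045), with array weights (limma, adjusted p = 0.049) and with arrays centred on epithelium genes (limma, adjusted p = 0.045), in a range of 0.045 to 0.24 over the alternatives. The RNA helicase gene Ddx21 stood at 0.41 ± 0.16 and the nucleostemin gene Gnl3, a nucleolar GTPase found in stem cells, at 0.38 ± 0.16 (SE, n = 3; limma, adjusted p = 0.17 and 0.19). In both, DBZ replicate 1 fell within the vehicle range and replicates 2 and 3 lay above it, and both passed without DBZ replicate 1 (limma, adjusted p = 0.031 and 0.028). Mybbp1a, a nucleolar repressor and ribosomal RNA processing factor, stood at 0.07 ± 0.15, with DBZ replicate 2 above and the other DBZ arrays below every vehicle array.

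Core proteins of the small nucleolar ribonucleoproteins showed no shared direction. Fbl, fibrillarin, the methyltransferase of the box C/D particles, read 1590, 1763 and 1552 in vehicle and 1317, 1901 and 1363 in DBZ arrays. Nop56, its partner in the particle, read 593, 580 and 652 in vehicle and 496, 727 and 553 in DBZ arrays. Dkc1, dyskerin, the pseudouridine synthase of the box H/ACA particles, read 642, 666 and 698 in vehicle and 544, 713 and 509 in DBZ arrays. For all 3 genes DBZ replicate 2 was the highest array and the other DBZ arrays were the lowest of the 6. Differences were -0.12 ± 0.15, -0.05 ± 0.14 and -0.19 ± 0.13 (SE, n = 3; limma, Benjamini-Hochberg adjusted p = 0.68, 0.85 and 0.40). The other probe sets of Dkc1 were at 0.24 and -0.25. Nop58, the other box C/D scaffold, stood at 0.33 ± 0.16, and Rrp9, which is specific to the U3 particle, at 0.04 ± 0.07, or -0.04 with quantile normalization.

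Assembly factors of the small subunit held the one change and the largest differences. Of 11 genes 9 had a positive difference (81.8%, against 45.4% of all genes), with a median of 0.32. An unadjusted p under 0.05 (limma) was seen for 7, the lower Nob1 among them (63.6%, against 26.3% of all genes). The DBZ arrays lay above all vehicle arrays for 3, Tsr1, Bysl and Nop14 (27.3%, against 17.3% of all genes), and below them for 1, Nob1 (9.09%, against 15.8%). Tsr1, a GTPase-like protein that keeps the immature small subunit inactive in the cytoplasm, read 408, 463 and 467 in vehicle and 627, 903 and 841 in DBZ arrays. All DBZ arrays lay above all vehicle arrays, with DBZ replicate 1 the lowest of them. Means were 446 ± 33.2 and 790 ± 145 (SD, n = 3), and the log2 difference was 0.79 ± 0.14 (SE; limma, Benjamini-Hochberg adjusted p = 0.041; range over the alternatives 0.0090 to 0.17). The call ended when any one vehicle array was left out (limma, adjusted p = 0.12 each), or DBZ replicate 2 or 3 (limma, adjusted p = 0.090 and 0.088). It also ended when 64 was added to the intensities (limma, adjusted p = 0.062) and when both probe sets were averaged (limma, adjusted p = 0.071). Without DBZ replicate 1 it was 0.94 (limma, adjusted p = 0.0090). The dimmer probe set of Tsr1 stood at 0.59 ± 0.20 (SE) and did not pass on its own (limma over probe sets, adjusted p = 0.15).

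Bysl, bystin, which binds the same pre-ribosome in the nucleus, read 176, 162 and 187 in vehicle and 226, 361 and 343 in DBZ arrays. The order of the arrays was like that of Tsr1, with DBZ replicate 1 between the vehicle arrays and the other DBZ arrays. The difference was 0.74 ± 0.18 (SE, n = 3; limma, Benjamini-Hochberg adjusted p = 0.065; range over the alternatives 0.0084 to 0.20). It passed in 6 alternatives, among them without DBZ replicate 1 (0.95; limma, adjusted p = 0.0084). Its other probe set stood at 0.55 ± 0.11 (limma over probe sets, adjusted p = 0.056).

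Nop14, a component of the processome that cuts the precursor RNA, read 120, 128 and 144 in vehicle and 158, 175 and 180 in DBZ arrays. The groups did not overlap and spread alike, at 131 ± 11.8 and 171 ± 11.6 (SD, n = 3), with a difference of 0.35 ± 0.08 (SE; limma, Benjamini-Hochberg adjusted p = 0.068). With array weights it passed at 0.29 (limma, adjusted p = 0.049). The export factor gene Rrp12 read 55.1, 67.2 and 57.4 in vehicle and 64.9, 119 and 98.8 in DBZ arrays, with DBZ replicate 1 inside the vehicle range (0.51 ± 0.19, SE; limma, adjusted p = 0.16). Without that array Rrp12 passed at 0.72 (limma, adjusted p = 0.022). Wdr75 and Heatr1, early processome proteins that also support RNA polymerase I, stood at 0.49 ± 0.17 and 0.32 ± 0.13, and Heatr1 passed without DBZ replicate 1 (0.44; limma, adjusted p = 0.045). The chaperone gene Ltv1 stood at 0.32 ± 0.16, Noc4l at 0.12 ± 0.08 and Wdr43 at 0.08 ± 0.07.

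Nob1 had a negative difference. This endonuclease makes the last cut of the small subunit RNA, and it read 259, 259 and 271 in vehicle and 236, 232 and 204 in DBZ arrays. The groups did not overlap, and the difference was -0.22 ± 0.07 (SE, n = 3; limma, Benjamini-Hochberg adjusted p = 0.13). Utp20, a large scaffold protein of the processome, stood at -0.14 ± 0.14.

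**Figure D2:**
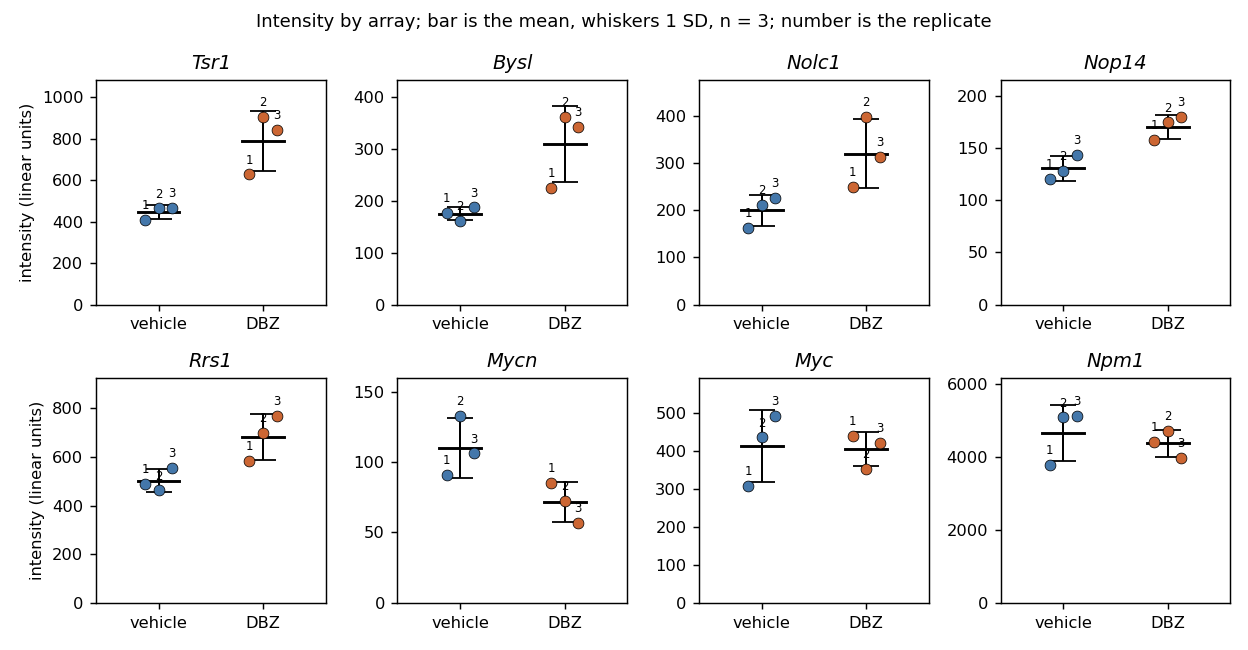
Intensity on a linear axis from 0 for 8 of the genes in the 3 vehicle and 3 DBZ arrays, with the mean as a bar, 1 SD as whiskers and the replicate number over each point. The groups do not overlap for Tsr1, Bysl, Nolc1, Nop14, Rrs1 and Mycn, and they overlap for Myc (309 to 493 in vehicle, 354 to 440 in DBZ arrays) and Npm1.

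Of the 10 large subunit factors 7 had a positive difference (70%, against 45.4% of all genes) and 0 passed, with a median of 0.20. At an unadjusted p under 0.05 (limma) there were 3, namely Rrs1, Noc3l and Rrp1b, or 30%, near the 26.3% of all genes. Rrs1, which brings the 5S particle into the pre-ribosome, read 491, 463 and 557 in vehicle and 583, 699 and 771 in DBZ arrays. The groups did not overlap (0.43 ± 0.12, SE, n = 3; limma, Benjamini-Hochberg adjusted p = 0.093), and the other probe set was at 0.49 ± 0.15. Without DBZ replicate 1 Rrs1 passed at 0.53 (limma, adjusted p = 0.036). Noc3l, of a nucleolar complex that moves the pre-ribosome, read 103, 103 and 93.2 in vehicle and 112, 112 and 116 in DBZ arrays, a small difference of 0.16 ± 0.06 (SE; limma, adjusted p = 0.16).

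Bop1, Pes1 and Wdr12 form a complex, PeBoW, that is needed for processing of large subunit RNA. They stood at 0.17 ± 0.17, 0.23 ± 0.14 and 0.23 ± 0.12 (SE, n = 3; limma, Benjamini-Hochberg adjusted p = 0.56, 0.35 and 0.28). All 3 had their lowest value in vehicle replicate 1 and their highest in DBZ replicate 2. Without vehicle replicate 1 they were at 0.07, 0.12 and 0.12, and Bop1 was at 0.0087 without DBZ replicate 2. Nop16 and Ftsj3, an assembly factor and a methyltransferase, stood at 0.28 ± 0.18 and 0.24 ± 0.19, and at 0.17 and 0.02 without vehicle replicate 1. The RNA methyltransferase gene Nop2 stood at -0.14 ± 0.13 and Noc2l at -0.05 ± 0.15. Rrp1b read 144, 137 and 132 in vehicle and 113, 126 and 123 in DBZ arrays without overlap (-0.17 ± 0.07, SE; limma, adjusted p = 0.17), while its other probe sets were at -0.08 and 0.08.

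The members varied more among DBZ arrays than among vehicle arrays. The median over members of the log2 SD within a group was 0.14 in vehicle and 0.23 in DBZ arrays, against 0.13 and 0.15 over genes above the median gene. Of the 40 members 25 had their highest value in DBZ replicate 2 (62.5%, against 12.2% of all genes), and 17 their lowest in vehicle replicate 1 (42.5%, against 23.5%). DBZ replicate 2 exceeded every vehicle array for 29 members (72.5%, against 30.8% of all genes), DBZ replicate 3 for 18 (45%, against 32.2%) and DBZ replicate 1 for 10 (25%, against 29.5%). DBZ replicate 1 was the lowest DBZ array for 28 members, where that held for 33.2% of all genes. As deviations from the mean of the 6 arrays, the member median was -0.23 in vehicle replicate 1 and -0.01 in both other vehicle arrays. It was -0.06 in DBZ replicate 1, 0.25 in DBZ replicate 2 and 0.06 in DBZ replicate 3. The member median of DBZ replicate 1 lay below those of vehicle replicates 2 and 3. Over genes above the median gene, the median deviation was -0.07 in vehicle replicate 1 and 0.01 in DBZ replicate 2.

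**Figure D3:**
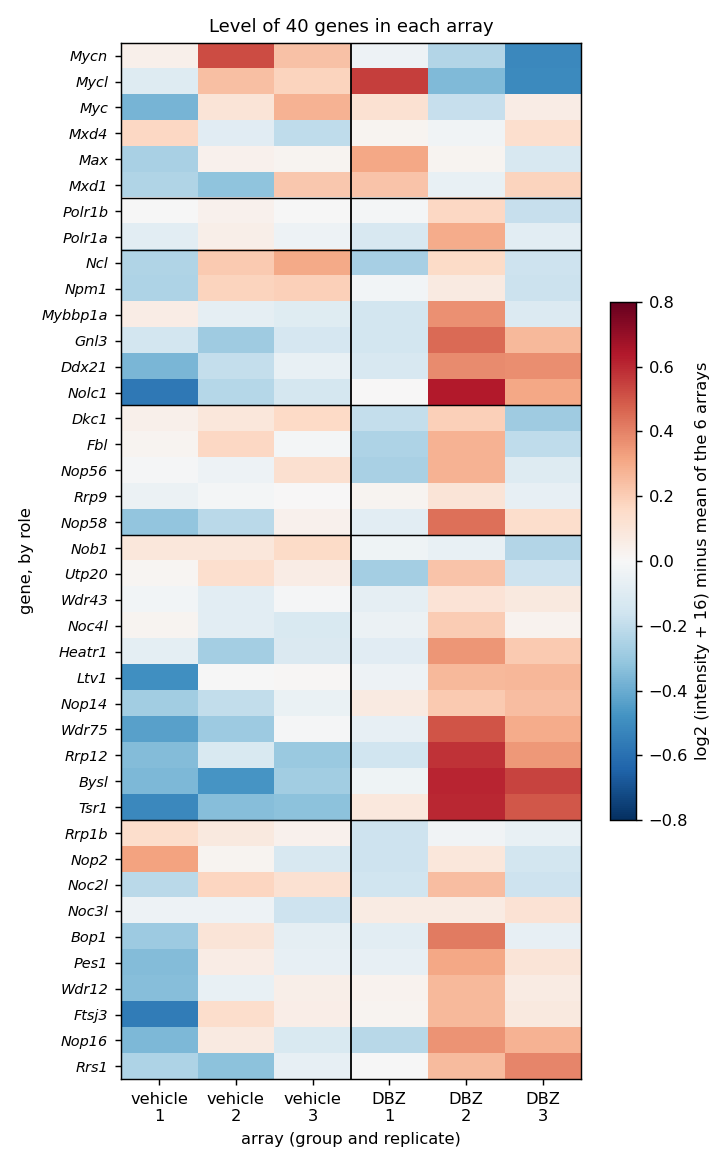
Log2(intensity + 16) of each of the 40 genes (rows, ordered by role) in each of the 6 arrays (columns), as the deviation from that gene's mean over the arrays, red above and blue below. DBZ replicate 2 is the highest array for 25 genes, and vehicle replicate 1 the lowest for 17.

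The order of the arrays was then read by role. The median deviation of the small subunit factors was 0.26 and 0.24 in DBZ replicates 2 and 3, while that of the ribonucleoprotein core was 0.28 in replicate 2 and -0.10 in replicate 3. The Myc network ran otherwise, at 0.17 in DBZ replicate 1 and -0.12 and -0.04 in replicates 2 and 3. Dividing cell markers summed to 4467, 5723 and 3562 in DBZ replicates 1, 2 and 3 and to 5755, 4571 and 5428 in vehicle replicates 1, 2 and 3. Among the DBZ arrays replicate 2 had the highest sum, but over all 6 it was highest in vehicle replicate 1, where the members were lowest. S phase markers summed to 10919, 11509 and 11772 in vehicle replicates 1, 2 and 3, lowest in replicate 1 as the members were. Their DBZ sums, given above, were highest in replicate 2, as for the members. They were lowest in replicate 3, however, and all lay below every vehicle array. Enteroendocrine markers were lowest in DBZ replicate 1 among the DBZ arrays, as given above. Whether any of these markers accounts for the order of the members was not tested.

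**Figure D4:**
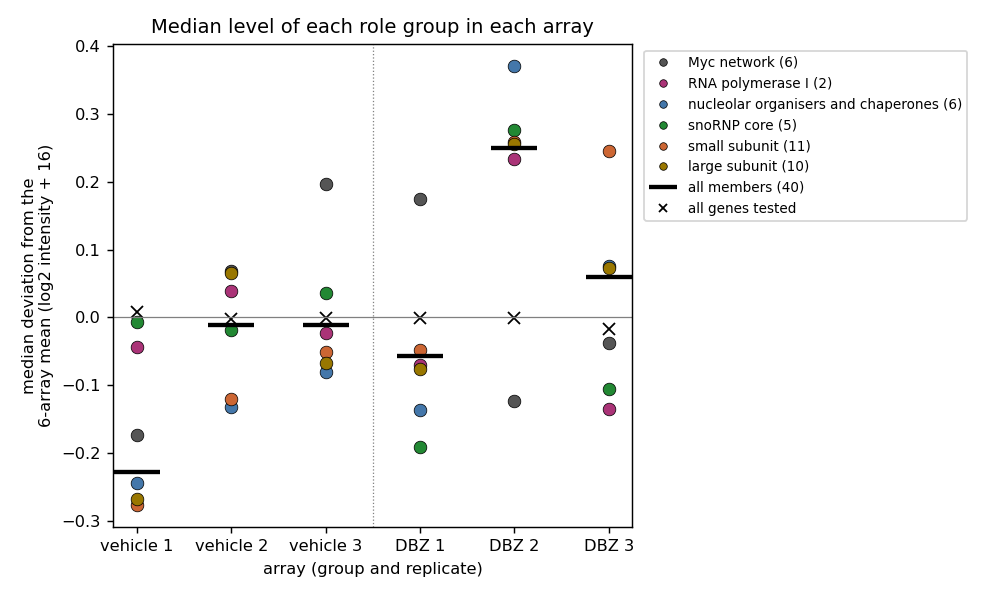
Median deviation from the 6-array mean (log2 scale) for each role group (number of genes in brackets), for all 40 members (black bars) and for all genes tested (crosses), in each array. The member bar is highest in DBZ replicate 2, at 0.25, and lowest in vehicle replicate 1, at -0.23, while the crosses stay near 0.

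The count of called members depended on single arrays. Without DBZ replicate 1 there were 8 members higher, namely Tsr1, Bysl, Rrp12, Gnl3, Ddx21, Rrs1, Heatr1 and Nolc1 (20%, against 7.17% of all genes higher and 4% lower), and 0 lower. Mycl and Mycn stood at -0.53 and -0.64 in that fit (limma, Benjamini-Hochberg adjusted p = 0.056 and 0.069). Without vehicle replicate 1, 2 or 3 there were 0 members called, where 0.269%, 0.104% and 0.209% of all genes were called. Without DBZ replicate 2 or 3 there were likewise 0, where 1.19% and 1.93% of all genes were called. With all arrays the count at an unadjusted p under 0.05 was 14 (limma).

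Other genes of the pathway were read from lists of symbols that hold no member. Of 166 measured genes 4 were higher and 3 lower past the test, together 4.22%, near the 5.34% of all genes called. The lists differed, at 2.5% of the 120 genes of ribosome biogenesis and 13.3% of the 30 Myc targets outside the nucleolus. A positive difference was seen in 63.9%, against 45.4% of all genes. Among 41 further small subunit factors 1 rose, Mphosph10 of the U3 particle, from 263 ± 30.2 to 399 ± 37.8 intensity units (SD, n = 3), a difference of 0.57 ± 0.11 (SE; limma, Benjamini-Hochberg adjusted p = 0.044). The call ended with the mean of its probe sets, at 0.36 (limma, adjusted p = 0.071). Of the 41 genes 30 were positive, with a median of 0.12. Among 38 large subunit factors 1 rose, the ribosomal RNA methyltransferase gene Rrp8, by 0.45 ± 0.09 (SE; limma, adjusted p = 0.049). Rrp8 lay at the threshold and did not pass with quantile normalization or with arrays centred on their medians (limma, adjusted p = 0.060 each), without _x_at and _s_at probe sets (limma, adjusted p = 0.0504) or with a trended, robust variance (limma, adjusted p = 0.051). Of the 38 genes 29 were positive, with a median of 0.14. Without DBZ replicate 1 the 166 genes gave 14 higher and 6 lower, without any one vehicle array 0, and without DBZ replicate 2 or 3 they gave 1 of each.

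Of 13 genes of the RNA polymerase I machinery 1 fell, Taf1d, a subunit of the selectivity factor that brings the polymerase to its promoter. It went from 558 ± 22.6 to 392 ± 16.9 (SD, n = 3), a difference of -0.49 ± 0.06 (SE; limma, Benjamini-Hochberg adjusted p = 0.025). With the mean of its probe sets it stood at -0.18 and did not pass (limma, adjusted p = 0.14). Of 11 further ribonucleoprotein genes 0 passed, with 2 at an unadjusted p under 0.05 (limma; 18.2%, against 26.3% of all genes). These were Nufip1 at -0.24 ± 0.08 and Znhit6 at 0.29 ± 0.10. Of 17 genes of the exosome, which trims ribosomal RNA, and of other trimming factors, 0 passed. An unadjusted p under 0.05 was seen for 3 (limma; 17.6%, against 26.3%). Exosc9 stood at -0.53 ± 0.12 and Exosc1 at 0.31 ± 0.11 (SE; limma, adjusted p = 0.056 and 0.13).

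Of 16 partners and regulators in the Myc network 0 passed, with 3 at an unadjusted p under 0.05 (limma; 18.75%, against 26.3% of all genes). Mlxipl, a glucose-responsive factor that pairs with the Max-like protein Mlx, averaged 941 ± 168 without DBZ and 375 ± 149 with it (SD, n = 3), a difference of -1.35 ± 0.30 (SE; limma, Benjamini-Hochberg adjusted p = 0.056). Fbxw7, the ligase subunit that marks Myc for degradation, stood at 0.36 ± 0.10 (SE; limma, adjusted p = 0.097). Of 30 genes known as Myc targets outside the nucleolus 2 rose and 2 fell (13.3%, against 5.34% of all genes), with a median of 0.09. At an unadjusted p under 0.05 (limma) there were 15, or 50%, against 26.3% of all genes. Srm, spermidine synthase, read 252, 293 and 301 in vehicle and 573, 1346 and 1308 in DBZ replicates 1, 2 and 3. All DBZ arrays were above all vehicle arrays, with replicate 1 again the lowest of them (1.78 ± 0.33, SE; limma, adjusted p = 0.041). Ccnd2, cyclin D2, rose by 0.70 ± 0.08, while Shmt1 of folate metabolism fell by 1.54 and the DNA repair nuclease gene Apex1 by 0.79. Apex1 did not pass without _x_at and _s_at probe sets (limma, adjusted p = 0.12) or with quantile normalization (limma, adjusted p = 0.053). Of these 4 calls, none held without vehicle replicate 1, 2 or 3. Of the 7 calls in all pathway lists only those of Taf1d and Ccnd2 held with a pseudocount of 64 (limma, adjusted p = 0.030 and 0.031).

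Promoter sequence was available from RefSeq (GRCm38.p6) as windows of 300 bases, 250 before and 50 after a start site. The table matched 34 of the 40 members. Myc, Npm1, Fbl, Rrp12, Bop1 and Rrs1 had no entry. The stretches below, 120 bases before to 30 after the start site, are those of the member that rose, of the next members by difference with non-overlapping groups that the table holds, and of 3 members with an E-box whose groups overlapped. They show that an E-box stood both in a gene that passed and in genes that did not. They are written 5′ to 3′ on the strand of the gene, with the E-box CACGTG in capitals.
Tsr1 (chr11:74897960-74898109, plus strand): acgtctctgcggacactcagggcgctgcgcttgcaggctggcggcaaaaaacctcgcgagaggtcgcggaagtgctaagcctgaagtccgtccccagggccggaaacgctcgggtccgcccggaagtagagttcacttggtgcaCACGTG
Bysl (chr17:47611463-47611612, minus strand): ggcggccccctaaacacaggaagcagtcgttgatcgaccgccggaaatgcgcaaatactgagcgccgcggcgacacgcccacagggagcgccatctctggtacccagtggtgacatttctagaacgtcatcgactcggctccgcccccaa
Nolc1 (chr19:46075727-46075876, plus strand): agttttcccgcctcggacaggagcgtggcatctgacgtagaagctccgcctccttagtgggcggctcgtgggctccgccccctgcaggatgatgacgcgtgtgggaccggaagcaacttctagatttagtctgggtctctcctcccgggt
Nop14 (chr5:34660119-34660268, minus strand): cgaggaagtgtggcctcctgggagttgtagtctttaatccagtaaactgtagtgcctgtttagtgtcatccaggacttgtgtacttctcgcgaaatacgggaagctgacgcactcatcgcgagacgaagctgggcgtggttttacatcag
Max (chr12:76962219-76962368, minus strand): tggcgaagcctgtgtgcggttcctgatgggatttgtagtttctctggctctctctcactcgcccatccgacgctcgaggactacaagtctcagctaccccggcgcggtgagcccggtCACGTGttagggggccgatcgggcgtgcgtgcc
Pes1 (chr11:3963855-3964004, plus strand): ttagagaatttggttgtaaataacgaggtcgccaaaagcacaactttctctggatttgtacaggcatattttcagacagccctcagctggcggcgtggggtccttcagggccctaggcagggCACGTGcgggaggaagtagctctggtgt
Wdr43 (chr17:71616095-71616244, plus strand): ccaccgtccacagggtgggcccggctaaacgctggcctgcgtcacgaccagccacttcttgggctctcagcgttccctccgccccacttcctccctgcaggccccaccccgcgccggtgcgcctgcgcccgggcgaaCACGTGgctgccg

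The E-box CACGTG, which reads alike on both strands, was found in the windows of 9 of the 34 members, or 26.5%, against 10.2% of 14452 measured genes that the table holds and 7.15% of all 32851 windows. The 9 were Tsr1, Ltv1, Pes1, Max, Mxd4, Wdr43, Mybbp1a, Utp20 and Nop2. Their differences ran from -0.14 to 0.79 with a median of 0.08, and those of the 25 members without it from -0.53 to 0.74 with a median of 0.16. GTGGGAA, searched on both strands and part of the site bound by Rbpj, the DNA-binding partner of Notch, was found in the windows of 2 members, Tsr1 and Rrp9 (5.88%, against 7.4% of measured genes). CCGGAAGT, a site of ETS factors, was found on either strand for 4 members, Tsr1, Ltv1, Heatr1 and Noc2l (11.8%, against 6.62%). No match overlapped a match of another motif. These are matches of letters and say nothing of binding.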

How the data were processed

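Total RNA of GFP-high cells from 6 mice was amplified with a 3' IVT kit, per the labels' protocols. The values deposited by the authors are linear intensities, 1 per probe set and array, whose medians were already close. How they corrected background, normalized and called detection is not given in the sources used here. Of 45101 probe sets, 34945 carried 1 gene symbol in GEO's platform annotation and were used, giving 18193 genes. The 64 array controls, 932 probe sets with several symbols and 9160 with none were left out.

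Intensities were tested as log2(intensity + 16), a scale that understates changes of dim genes, with limma 3.58.1 in R 4.3.3 (lmFit, eBayes, two-sided, Benjamini-Hochberg over all genes, adjusted p under 0.05). SE is the moderated standard error. The prior added 2.21 degrees of freedom to 4. An exact permutation test of 1 value cannot go below p = 0.1 here. Simulated arrays of 18193 genes gave back 86% of genes with a true log2 change of 1, and 93% at 2, and 6.28% of the calls were false. The noise was drawn independently, with no shift of an array shared by genes. Smaller changes were not simulated, and the largest difference of a member was 0.79.

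All 40 members are named. From each further list up to 4 genes past the threshold are named, or the 2 of smallest p. The members and lists were chosen with earlier results of these data known. Of 353 listed symbols 342 were measured. Alternatives changed scaling, pseudocount, dim genes, probe sets, variance model, weights, block, threshold and arrays left out.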

Additional observations from a re-analysis of the deposited data

How the results depend on the processing

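The 40 log2 differences kept their direction and their side of the threshold in 710 comparisons with an alternative, passed it anew in 16, lost it in 8 (all Tsr1) and changed sign in 21. The median over the members, 0.13, ran from 0.06 to 0.17. One member was higher, but 3 with centring on epithelium genes, 2 with a pseudocount of 1, 2 among genes above the median gene (35 members tested), 2 with a trended, robust variance, 4 with array weights and 4 at a threshold of 0.1. The count was 0 with a pseudocount of 64, the mean of all probe sets and limma's ordinary t statistics, beside 11 at an unadjusted p under 0.05 (limma). With array weights 1 member, Mycn, was lower. Leaving out 1 array gave 0 to 8 members higher. Over all genes the 695 higher became 1075 with centring on epithelium genes, and the 277 lower did not move by over 1.5 times. Higher and lower genes numbered 310 and 130 with a pseudocount of 64, 1660 and 1030 with array weights, 0 and 0 with ordinary t statistics, and 1642 and 933 at a threshold of 0.1. Leaving out 1 array gave 16 to 1305 higher and 3 to 727 lower. Signs turned for members whose difference lay between -0.14 and 0.07. Myc was at 0.0091 with centring on epithelium genes, Polr1a at -0.012 with quantile normalization and -0.0083 with the mean of all probe sets, and Rrp9 at -0.041 with quantile normalization. Array weights put Polr1b at 0.058, Fbl at 0.040, Nop2 at 0.043 and Nop56 at 0.016. Nop56 was at 0.013 with the mean of all probe sets and 0.080 without _x_at and _s_at probe sets. Leaving out 1 array, Myc ran from -0.19 to 0.13, Polr1a from -0.079 to 0.13, Polr1b from -0.11 to 0.067, Mybbp1a from -0.089 to 0.17, Nop56 from -0.21 to 0.060, Rrp9 from -0.0018 to 0.085 and Noc2l from -0.19 to 0.021. The cause was not tested. Deviations of same-numbered arrays correlated at -0.0086, 0.25 and 0.20 for replicates 1, 2 and 3. Those of vehicle replicate 3 with DBZ replicate 2 and of vehicle replicate 2 with DBZ replicate 3 correlated at -0.29 and -0.18. The sample titles name no pairs, and whether equal numbers mark pairs cannot be told from these values. With a replicate block 1 member, Tsr1, was higher (limma, adjusted p = 0.037) and 0 lower, beside 672 and 217 of all genes, and no member's call changed. Array weights ran from 0.409 (vehicle replicate 1) to 3.06 (vehicle replicate 3). Adding each probe set on its own was chosen after seeing the data.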

Other observations

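The E-box CACGTG lay wholly after the start site in 6 of the 34 members with a promoter window, or 17.6%, against 1.53% of 14452 measured genes. The 6 were Pes1, Wdr43, Tsr1, Ltv1, Utp20 and Mybbp1a. Counted from 1 at the start site, its first base was at 3, 18, 25, 29, 38 and 41 in that order. The position was looked at after the values were seen and was given no test.

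The 40 members carried 85 probe sets. Fitted one by one with all 34945 probe sets of a single symbol, 1 of the 85 was past an adjusted p of 0.05 (limma), where 1002 of all probe sets were.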
